A study of Macaca radiata with 4 samples.

Results

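The respiratory chain and ATP synthase genes of the monkey corpus luteum were followed through 71 genes, out of 14132 genes with a single symbol on the array. Members were all genes whose symbol begins with a nuclear subunit stem of complexes I to V, namely NDUFA, NDUFB, NDUFC, NDUFS or NDUFV, SDHA to SDHD, UQCR or CYC1, COX4 to COX8 or COX10 to COX19, and ATP5. They covered 118 probe sets, and each gene was represented by the probe set with the largest mean signal. The samples were corpora lutea, the progesterone-secreting glands that form after ovulation, from bonnet monkeys (Macaca radiata). Every animal, controls included, was treated on luteal day 7 with CET (150 µg/kg), which per the labels inhibits the secretion of its own LH. At 24 h, 2 animals were given 20 IU/kg of rhLH intravenously (replicates 3 and 4) and 2 were given 0.5 ml of PBS (replicates 1 and 2), and the gland was taken 8 h later. No group without CET was analysed here, the labels do not say which animal gave which array, and the probes were designed for the rhesus macaque, a related species. Spread between these arrays may therefore be technical in part.

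Oxidative phosphorylation passes electrons from NADH through complex I, or from succinate through complex II, to ubiquinone, complex III, cytochrome c and complex IV, where oxygen is reduced. Complexes I, III and IV pump protons, and complex V, the ATP synthase, uses the proton gradient to make ATP. In steroidogenic luteal cells the same inner membrane also houses the side-chain cleavage of cholesterol, the first step of progesterone synthesis. The roles given below are those known for the human proteins. By symbol the members were 26 genes of complex I, 3 of complex II (SDHD was not among the annotated probe sets used here), 7 of complex III, 8 of complex IV, 15 of complex V and 12 assembly factors. The 15 of complex V include ATP5IF1, which encodes an inhibitor of the enzyme and not a subunit, and the 26 of complex I include NDUFA4, now counted with complex IV, and its paralog NDUFA4L2. None of the subunits encoded by mitochondrial DNA was matched to a probe set.

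PBS replicate 1 stood apart from the other 3 arrays, and most of what follows turns on it. The 4 arrays had the same 2% trimmed mean signal (500.0), yet the 99th percentile of signal was 12091 and 12271 on the rhLH arrays, against 8886 on PBS replicate 1 and 12459 on PBS replicate 2. The ratio of the 3′ to the 5′ control probe set of beta-actin, a measure of RNA and labelling quality, was 1.59 and 1.54 on the rhLH arrays, against 11.24 on PBS replicate 1 and 1.49 on PBS replicate 2. For GAPDH it was 2.28 and 1.62 with rhLH, against 3.23 and 1.88 with PBS. For EF1A it was 0.93 and 0.88 with rhLH, against 1.06 and 0.95 with PBS, so this control set PBS replicate 1 little apart. The 5′ end of actin was thus poorly covered on 1 array of the 4. Control transcripts of bacteria and phage, which are added to the sample, were also dimmer there: over 9 such probe sets the rhLH mean exceeded PBS replicate 1 by a median of 0.57 on the log2 scale and lay 0.10 below PBS replicate 2 (log2 −0.10). Values are therefore given against each PBS array as well as against both. In a whole gland, fewer cells of a type and less RNA per cell cannot be told apart.

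Over the 71 members, the median log2 difference of rhLH minus PBS was 0.38, beside 0.02 over all 10998 genes kept. Taken by control, this was 0.68 against PBS replicate 1 and 0.01 over PBS replicate 2, where all genes gave −0.01 and 0.00. The median signal of the representative probe sets was thus much the same on the rhLH arrays and on PBS replicate 2, and lower on PBS replicate 1 alone. This did not extend to the further kept probe sets of the same genes. For 26 of those 35 the rhLH mean lay below PBS replicate 1, with a median log2 difference of −0.48. All 71 members passed the filter on low signal (mean log2 signal above the 40th percentile, which is a signal of 90.7). Of them, 0 were called by limma in either direction after Benjamini-Hochberg adjustment over 31659 probe sets (0.0% called higher and 0.0% lower), with adjusted p-values from 0.919 to 0.997. At an unadjusted limma p under 0.05 the count of members was also 0, beside 1.0% of all genes on the higher side and 0.9% on the lower (0.878% and 1.15% of probe sets). With 2 arrays against 2, an exact permutation test of a single value cannot give a two-sided p below 0.333.

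The array medians show the same arrangement. The median log2(signal + 16) of the members was 12.09 on rhLH replicate 3 and 12.26 on rhLH replicate 4, against 11.51 on PBS replicate 1 and 12.21 on PBS replicate 2. PBS replicate 2 lay between the rhLH arrays. Over all genes kept these medians were 9.40 and 9.38 with rhLH and 9.39 and 9.39 with PBS. PBS replicate 1 held the lowest of the 4 signals for 50 of 71 members (70.4%), as against 39.8% of all genes. Among the 1100 brightest of the genes kept it did so for 30 of 37 members (81.1%) and for 64.1% of all genes, so bright genes in general shared the low value. The gap between the PBS arrays had a median of 0.85 over the members, and that between the rhLH arrays 0.17. It was the larger of the pair for 57 of 71 members (80.3%, beside 74.9% of all genes).

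**Figure D1:**
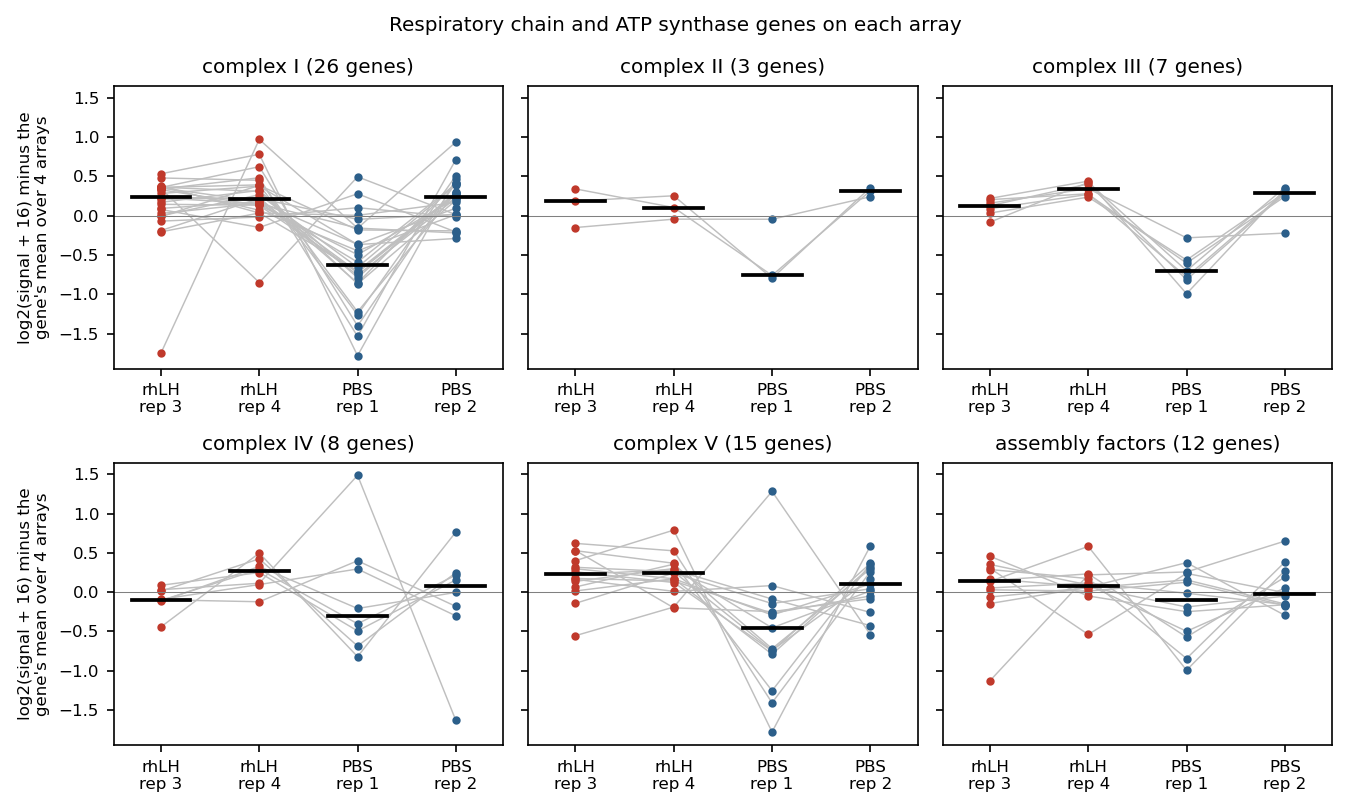
Log2(signal + 16) of each of the 71 members on the 4 arrays, minus that gene's mean over the arrays, in a panel per complex. Points are genes (red rhLH, blue PBS), grey lines join a gene's values and black bars are medians; PBS replicate 1 lies lowest for 50 of the 71 genes, and PBS replicate 2 lies between the rhLH arrays for 27 of them.

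The groups did not overlap for 20 members. Both rhLH arrays lay above both PBS arrays for 18 of 71 (25.4%), where this held for 16.3% of all genes, and below both for 2 (2.82%), where it held for 16.1% of all genes. With each array centred on its median, which moved the median of all genes to 0.25, the counts were 23 above (25.8% of all genes) and 0 below (9.5% of all genes). The 2 PBS arrays gave different counts. Both rhLH arrays exceeded PBS replicate 1 for 54 members (43.5% of all genes) and lay below it for 11 (43.5% of all genes). Set against PBS replicate 2 alone, both rhLH arrays lay above for 26 members and below for 18, beside 34.7% and 34.1% of all genes. The rhLH mean was within 0.25 log2 units of PBS replicate 2 for 51 members (71.8%), beside 52.9% of all genes, and within 0.25 of PBS replicate 1 for 10. Both rhLH arrays were at least 2-fold above PBS replicate 1 for 14 members (13.0% of all genes) and at least 2-fold below it for 2 (10.2% of all genes). For PBS replicate 2 the counts were 1, the muscle isoform gene COX6A2 (1.63% of all genes), and 0 (0.8% of all genes).

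Complex I, which oxidises NADH, had a median difference of 0.43 over 26 genes, 0.74 against PBS replicate 1 and −0.03 over PBS replicate 2. Its 6 core subunits measured here, which carry flavin or iron-sulphur clusters or hold them in the peripheral arm, had a median of 1.12 against PBS replicate 1 (range 0.68 to 2.44) and of 0.00 over PBS replicate 2 (range −0.31 to 0.19). NDUFS7, an iron-sulphur subunit beside the ubiquinone site, gave 5334 and 6337 with rhLH, against 1059 and 5094 with PBS (log2 difference 1.31, SE 0.72; limma adjusted p = 0.919). PBS replicate 2 lay close under the rhLH arrays and PBS replicate 1 was 5.42-fold below their mean. The further kept probe set of NDUFS7 did not show this, with 584.8 and 753.8 with rhLH, against 754.3 and 768.0 with PBS, and the mean of both probe sets gave 0.56. NDUFV2, an iron-sulphur subunit next to the NADH site, had 8231 and 7929 with rhLH, against 3499 and 7333 with PBS (0.67, SE 0.44). NDUFS8, another iron-sulphur subunit named here after its values were seen, had 3339 and 3687 with rhLH, against 898.1 and 4332 with PBS, so that its difference was 1.95 against PBS replicate 1 and −0.30 over PBS replicate 2. All 6 core subunits were lowest on PBS replicate 1.

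Among the 20 accessory genes of complex I, the median was 0.65 against PBS replicate 1 and −0.03 over PBS replicate 2. NDUFB6, of the membrane arm, had 3131 and 3067 with rhLH, against 950.0 and 2750 with PBS (0.93, SE 0.53), the pattern of NDUFS7. NDUFB4, also of the membrane arm, had 18292 and 15915 with rhLH, against 8798 and 17464 with PBS (0.46, SE 0.45), and its rhLH values lay on either side of PBS replicate 2. NDUFA2 differed from these in that both PBS arrays were low: it had 18939 and 20202 with rhLH, against 12056 and 12729 with PBS, a mean of 19570.4 ± 894 against 12393 ± 476 (SD, n = 2 each; 1.58-fold, log2 0.66, SE 0.34; limma adjusted p = 0.919). Its difference was 0.70 against PBS replicate 1 and 0.62 over PBS replicate 2, and a further probe set gave 0.55 and 0.26.

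A few other complex I genes also lay above both PBS arrays by like amounts, and were picked out after their values were seen. NDUFA8 had 9752 and 9269 with rhLH, against 7472 and 7160.1 with PBS (log2 0.38, SE 0.31). NDUFA10 had 3143 and 4140 with rhLH, against 2790.2 and 2766 with PBS (0.37, SE 0.32). Both differences were little larger than their standard errors. The further kept probe set of NDUFA10 had the opposite sign (−0.28, and −0.87 against PBS replicate 1). NDUFC1 was the 1 member of complex I with both rhLH arrays below both PBS arrays, at 6022 and 6246 with rhLH, against 6782 and 6252 with PBS (−0.09, SE 0.31, but 0.14 with centred arrays). NDUFA4 had 7678 and 10187 with rhLH, against 8475 and 8858 with PBS, and NDUFA4L2 201.8 and 241.1 with rhLH, against 235.9 and 266.3 with PBS; the groups overlapped for both genes, and neither shared the low value on PBS replicate 1. NDUFV3 was the sole complex I member with a signal under 90.7 on an array, and is named for that reason (24.6 on rhLH replicate 3, 251 on rhLH replicate 4), so its difference of −0.78 (SE 1.02) rests on 1 dim reading.

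Complex II, succinate dehydrogenase, links the citric acid cycle to the chain. SDHA, the flavoprotein that oxidises succinate, had 3607 and 3884 with rhLH, against 3882 and 4737 with PBS (−0.20, SE 0.31, but 0.03 with centred arrays). SDHB, the iron-sulphur subunit, had 6606 and 6919.7 with rhLH, against 3333 and 7439 with PBS (0.44, SE 0.45), and SDHC, a membrane anchor, had 4133 and 3506 with rhLH, against 1918 and 4065 with PBS (0.44, SE 0.44). The groups overlapped for all 3 genes, and against PBS replicate 2 all 3 lay lower with rhLH, by log2 −0.34, −0.14 and −0.09. SDHA alone was not low on PBS replicate 1.

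Complex III passes electrons from ubiquinol to cytochrome c. Its 7 genes were all lowest on PBS replicate 1, with differences of 0.53 to 1.32 against that array. Against PBS replicate 2 they ran from −0.19 to 0.47, and 6 of 7 lay below 0. UQCRQ had 16674 and 17561 with rhLH, against 8424 and 17786 with PBS (0.48, SE 0.46). UQCRC2, a core protein, had 6853 and 7889.7 with rhLH, against 4523 and 8216 with PBS (0.27, SE 0.40). UQCRB, the ubiquinone-binding protein, was the exception, with 1666 and 1895 with rhLH, against 1222 and 1275 with PBS, a difference of 0.53 and 0.47 against the PBS arrays (pooled 0.50, SE 0.31; limma adjusted p = 0.919). Its other 2 kept probe sets stood at −0.10 and −0.77, so the gene's own probe sets did not share a direction.

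Complex IV, cytochrome c oxidase, had a median of 0.17 over 8 genes (0.40 against PBS replicate 1 and 0.04 over PBS replicate 2), and the groups overlapped for all 8. The other complexes had pooled medians of 0.42 to 0.48, but this order did not hold without PBS replicate 1, where complexes I to III lay at −0.03, −0.14 and −0.06, and the difference between complexes was not tested. COX6B1, which sits where the enzyme forms a dimer, had 26736 and 29914 with rhLH, against 17872 and 28019 with PBS (0.34, SE 0.41). COX7B ran the other way, with 12460 and 14194 with rhLH, against 16282 and 10762 with PBS, so PBS replicate 1 held its highest signal (0.01, SE 0.38). COX8A had 1912 and 2605 with rhLH, against 1794 and 2069.8 with PBS (0.21, SE 0.33).

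Complex IV also has tissue isoforms, and members of a pair gave different values. COX7A1, the heart and muscle isoform, had 6064 and 8069.8 with rhLH, against 3731 and 7138 with PBS (0.44, SE 0.43), while COX7A2, the widely expressed one, had 3313 and 3256 with rhLH, against 4682 and 3125 with PBS (−0.22, SE 0.34, but 0.01 with centred arrays). PBS replicate 1 was the lowest array for the first and the highest for the second. COX4I2, an isoform of COX4 that is known to be induced by low oxygen in some cells, had 1443 and 2780.4 with rhLH, against 1106 and 3351 with PBS (0.06, SE 0.61), and each group spanned more than 0.9 log2 units. COX6A2, a muscle isoform, had 231.0 and 245.5 with rhLH, against 661.5 and 62.0 with PBS, the last below 90.7, and its difference of 0.15 had an SE of 1.02.

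Complex V had a median of 0.42 over 15 genes, 0.67 against PBS replicate 1 and 0.12 over PBS replicate 2, and 6 of the 15 lay above both PBS arrays with 0 below, beside 16.3% and 16.1% of all genes and 22.9% and 10.3% of those in the highest signal quartile. ATP5IF1, which blocks the enzyme from running backwards when respiration fails, had 4125 and 3862 with rhLH, against 998.4 and 3210.5 with PBS. Its mean was 3993 ± 186 with rhLH and 2104 ± 1564 with PBS (SD, n = 2 each), 2.21-fold apart (log2 1.15, SE 0.57), which became 0.31 against PBS replicate 2 alone. Its limma p, unadjusted, was the smallest of all members at 0.0919 (adjusted 0.919). The further probe set of ATP5IF1 gave 0.06, so the difference was seen with 1 of the gene's 2 probe sets.

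The enzyme was also read in parts. The F1 part (its catalytic head and central stalk, 4 genes) had medians of 0.98 against PBS replicate 1 and −0.04 over PBS replicate 2. The outer stalk (4 genes) had 0.55 and 0.19, and the membrane part (6 genes) 0.36 and 0.13. The difference between parts was not tested. ATP5F1E, the epsilon subunit, had 21357 and 20536 with rhLH, against 10255 and 19222 with PBS (0.58, SE 0.43). ATP5F1D, the delta subunit, named after its values were seen, had 4014 and 5259 with rhLH, against 872.6 and 4569 with PBS, 5.19-fold over PBS replicate 1 and 0.01 on the log2 scale over PBS replicate 2. All 4 F1 genes were lowest on PBS replicate 1.

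In the stalk that holds the head still, ATP5PO had 15044 and 13461 with rhLH, against 4360.0 and 13368 with PBS (0.90, SE 0.57), and 3 of 4 genes lay above both PBS arrays (16.3% of all genes). The remaining gene, ATP5PB, was dim, with 159.5 and 209.9 with rhLH, against 610.6 and 161.2 with PBS. The 6 genes of the membrane part had medians of 0.36 and 0.13 against the PBS arrays. ATP5MG, the g subunit, had 26453 and 24216 with rhLH, against 12439 and 26895 with PBS (0.47, SE 0.48). The ring genes showed smaller gaps: ATP5MC1, ATP5MC2 and ATP5MC3 stood at 0.41, 0.20 and 0.38 against PBS replicate 1. ATP5G1, an old ring gene symbol that the annotation gives here to a pair of other gene identifiers, had 7514 and 6754 with rhLH, against 7108 and 5605 with PBS (0.17, SE 0.33). ATP5MJ, a small membrane protein of the enzyme picked out after its values were seen, lay above both PBS arrays by 0.34 and 0.68, with 2742 and 2850.5 with rhLH, against 2200.5 and 1737 with PBS (pooled 0.51, SE 0.31), while its further probe set stood at −0.63.

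Assembly factors had a median of 0.20 over 12 genes (0.20 against PBS replicate 1 and 0.16 over PBS replicate 2), so here the 2 controls gave like medians. COX11, which handles copper for complex IV, had 2737 and 2860.5 with rhLH, against 2613 and 2363 with PBS (0.17, SE 0.30). COX17, the copper chaperone ahead of it, had 2436 and 2269 with rhLH, against 1897 and 2089.7 with PBS (0.24, SE 0.30). The groups did not overlap for either gene, the differences were smaller than their standard errors, and the further probe sets stood at −0.15 for COX11 and −0.55 for COX17. COX10, an enzyme of the pathway to the heme of complex IV, had 2852 and 3888 with rhLH, against 1294 and 3136 with PBS (0.72, SE 0.49). It was lowest on PBS replicate 1, and its rhLH values lay on either side of PBS replicate 2.

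COX15, the next enzyme of that heme pathway, had 106 and 295 with rhLH, against 303 and 402 with PBS (−0.91, SE 0.60; limma adjusted p = 0.919). It was the member furthest on the lower side; its difference was −1.58 without rhLH replicate 4 and −0.23 without rhLH replicate 3, while the other probe set of COX15 gave 0.10. NDUFAF1, which acts early in the building of complex I, had 2779 and 2318 with rhLH, against 1534.5 and 2255 with PBS (0.44, SE 0.35). NDUFAF6, another factor of that kind, had 785 and 548 with rhLH, against 475 and 506 with PBS (0.41, SE 0.38). Both genes lay above both PBS arrays.

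**Figure D2:**
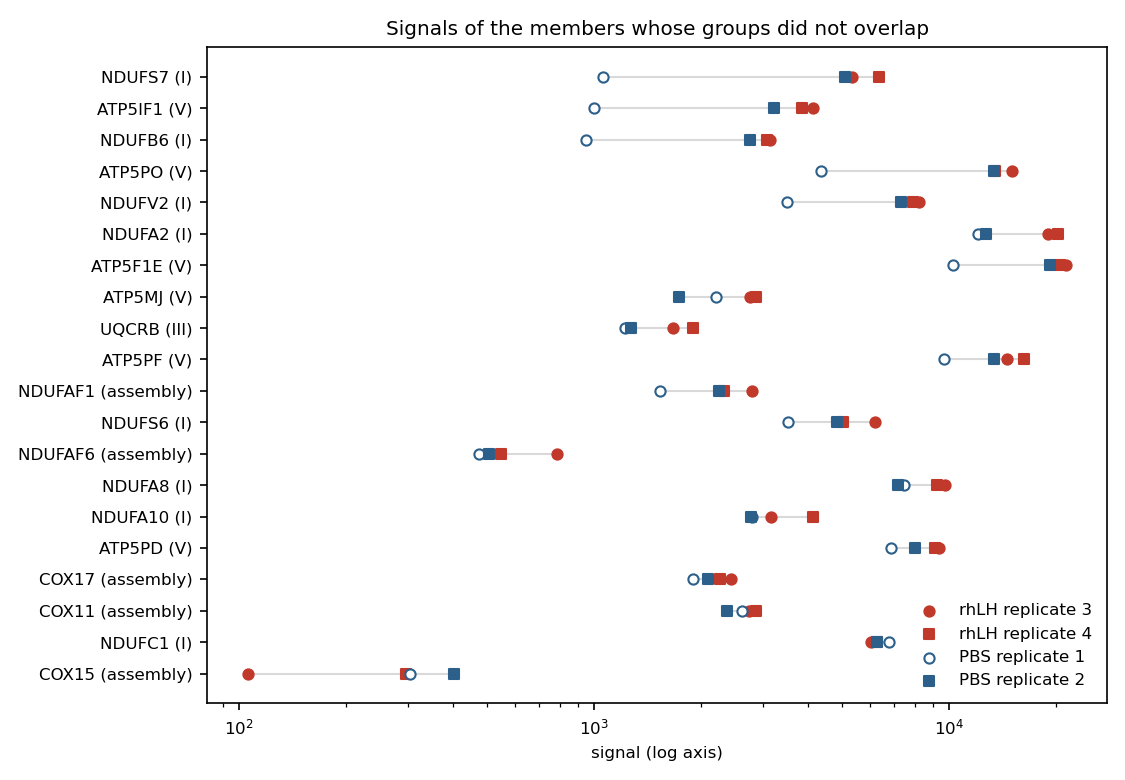
Signals on a log axis of the 20 members whose rhLH arrays (red) lay wholly above or wholly below their PBS arrays (blue; open circle PBS replicate 1, square PBS replicate 2). For the genes at the top, such as NDUFS7 and ATP5IF1, the distance between the groups is mainly that of PBS replicate 1, whereas both PBS arrays of NDUFA2 lie at 12056 and 12729, below its rhLH arrays.

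**Figure D3:**
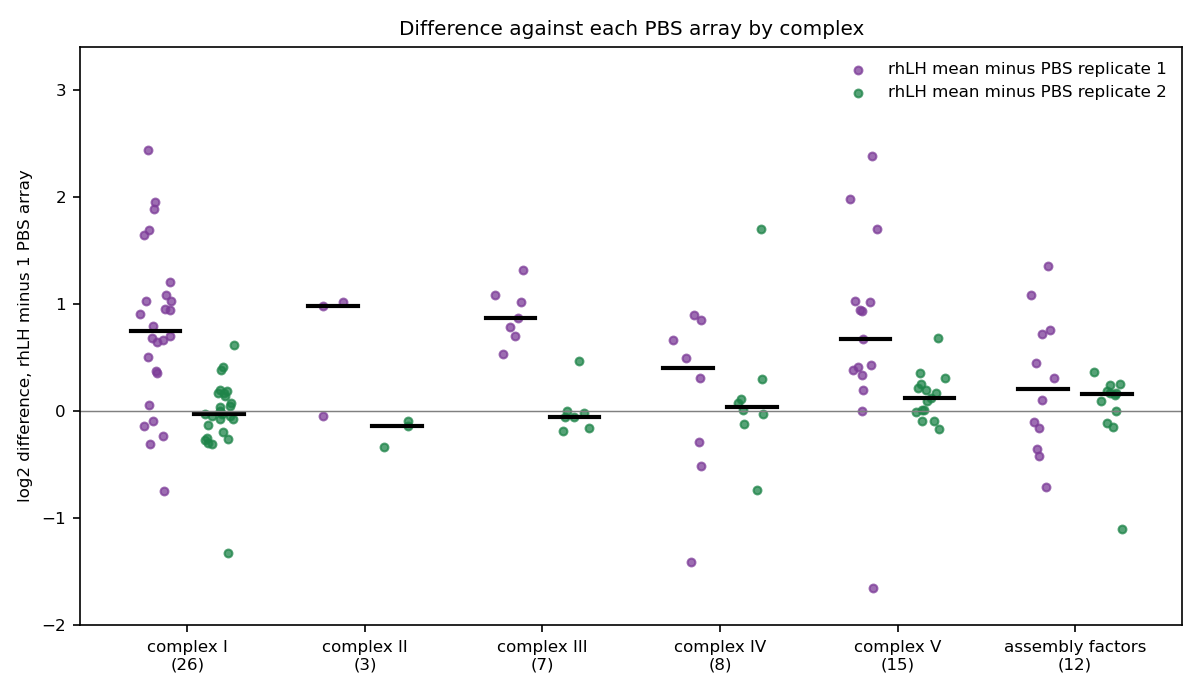
Log2 difference of the rhLH mean minus PBS replicate 1 (purple) and minus PBS replicate 2 (green) for each member by complex, with bars at the medians and the number of genes in brackets. The medians for complexes I to V run from 0.40 to 0.98 in purple and from −0.14 to 0.12 in green.

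The size of the difference against PBS replicate 1 moved with signal strength over all genes. From the lowest to the highest quartile of mean signal, the median difference of all genes against that array was −0.42, −0.06, 0.01 and 0.32, and against PBS replicate 2 it was −0.04, −0.02, 0.00 and 0.03. The members lie mostly in the highest quartile (57 of 71, signal above about 1566), where their median was 0.85 against PBS replicate 1 and 0.00 over PBS replicate 2. In that quartile 16 members of 57 (28.1%) had both rhLH arrays above both PBS arrays, beside 22.9% of all genes, and 91.2% of the members had a positive difference against PBS replicate 1, beside 64.4% of all genes. Among the 1100 brightest genes, a range chosen with the values in view that holds 37 members, 8 (21.6%) lay above both PBS arrays, beside 23.4% of all genes. The median difference there against PBS replicate 1 was 0.78 over the members and 0.47 over all genes. In the lowest quartile the 4 members had a median of −0.82 against PBS replicate 1. Members and all genes thus both ran from negative values among dim probe sets to positive ones among bright probe sets. The part of signal strength, of the 3′ to 5′ ratio and of the animal in this difference was not tested.

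Probe sets of the same gene differed in the same way. Besides the representatives, 35 further probe sets of 29 members were kept, and 24 of the 35 had a pooled difference of the sign opposite to their representative. Their median was −0.15 (−0.48 against PBS replicate 1 and −0.02 over PBS replicate 2), and 26 of 35 lay below PBS replicate 1. The 9 further probe sets in the highest signal quartile had a median of 0.53 against PBS replicate 1, and the 26 in the lower 3 quartiles had −0.65. In 9 genes a further kept probe set lay on the other side of 0 by over 0.5: ATP5F1B, ATP5F1D, ATP5F1E, ATP5MJ, COX17, NDUFB4, NDUFS6, NDUFV2 and UQCRB. For ATP5F1D the further probe set had 749.9 and 631.5 with rhLH, against 2351 and 1038 with PBS, opposite to the values above. With the mean over all kept probe sets of a gene in place of the brightest, the median over members was 0.19 and 11 genes lay above both PBS arrays. NDUFS8 was an exception, its further probe set giving 2.45 against PBS replicate 1 and −0.21 over PBS replicate 2.

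**Figure D4:**
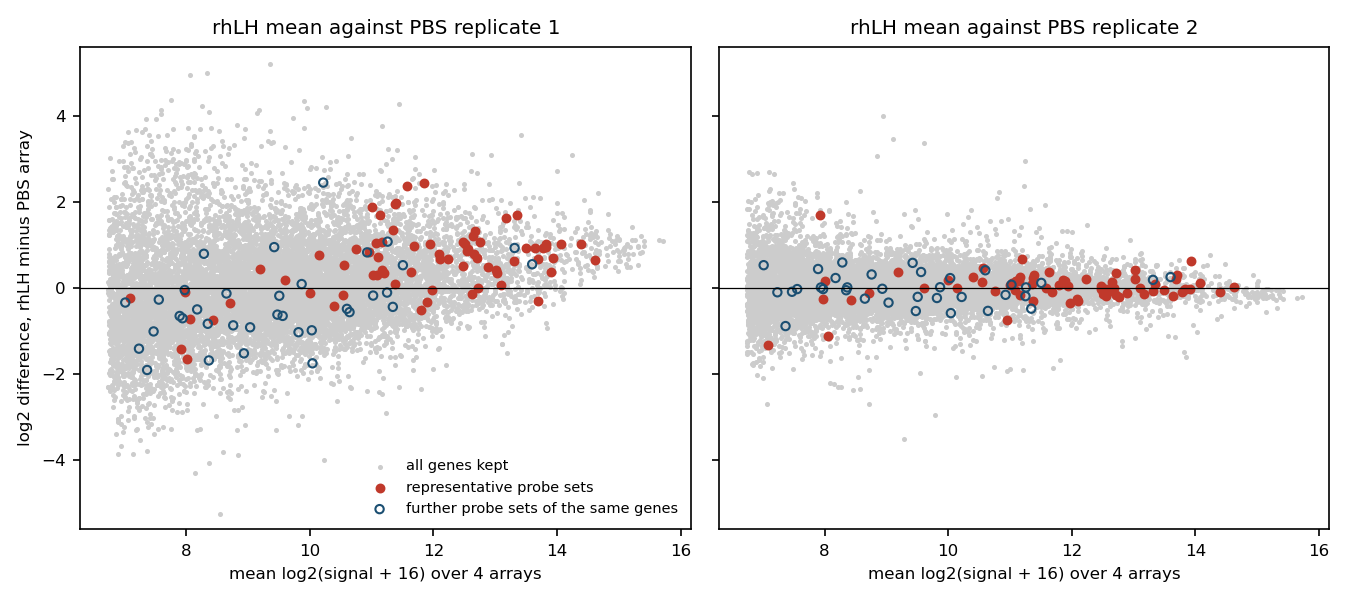
Log2 difference of the rhLH mean minus PBS replicate 1 (left) and minus PBS replicate 2 (right) against mean log2(signal + 16) over the 4 arrays. Grey points are the 10998 genes kept, red the 71 representative probe sets and open blue circles the 35 further probe sets of the same genes; on the left the members climb with signal as the grey cloud does, and on the right they centre on 0.

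Other genes of the same machinery were read beside the members. In the 4 pathway lists limma called 0 genes in either direction, and 0 had an unadjusted p under 0.05. Of 17 listed electron carriers and coenzyme Q genes, 12 were kept, with a median of −0.04 and no gene whose groups failed to overlap; CYCS was not among the genes matched. Of 25 listed assembly and expression factors outside the member list, 18 were kept, with a median of 0.27 (0.44 and 0.10 against the PBS arrays), 6 above both PBS arrays and 1 below (16.3% and 16.1% of all genes). The first of these in size were NUBPL, which delivers iron-sulphur clusters to complex I, at 0.93 and 0.29 against the PBS arrays, and BCS1L, which inserts the Rieske protein into complex III, at 0.60 and 0.37. LYRM7, which chaperones the same Rieske protein, lay below both by −0.48 and −0.48.

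Regulators of mitochondrial biogenesis gave values of either sign, with 11 of 19 kept, a median of 0.23, 4 above both PBS arrays and 1 below (16.3% and 16.1% of all genes). TFAM, which packages and transcribes mitochondrial DNA, had 1389 and 1188 with rhLH, against 2458 and 1494 with PBS (−0.57, SE 0.37). TWNK, the mitochondrial DNA helicase, had 465.9 and 306.8 with rhLH, against 209.0 and 233.5 with PBS (0.74, SE 0.46), and POLG, the polymerase that works with it, stood at 0.76 and 0.18 against the PBS arrays. NRF1, a transcription factor of many respiratory chain genes, had 674.3 and 780.2 with rhLH, against 1010.1 and 527.5 with PBS (−0.01, SE 0.43), and GABPA, another such factor, had 213.8 and 239.8 with rhLH, against 200.2 and 167.9 with PBS (0.28, SE 0.48). The coactivator PPARGC1A did not pass the filter, at 62.8 and 30.7 with rhLH, against 74.7 and 96.3 with PBS. Among genes of ATP and phosphate exchange, 6 of 11 were kept, with a median of 0.11, and VDAC3 and VDAC1, channels of the outer membrane, lay above both PBS arrays (0.50, SE 0.33, and 0.19, SE 0.31), as 16.3% of all genes did.

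All 10 measured markers of luteal steroidogenic cells were lowest on PBS replicate 1. A smaller share of them than of the members lay near PBS replicate 2. The rhLH mean was within 0.25 log2 units of that array for 4 of the 10, beside 51 of the 71 members (71.8%) and 52.9% of all genes. Both rhLH arrays lay above both PBS arrays for 4 of the 10 markers (HSD3B2, CYP19A1, NR5A2 and AMHR2). This held for 18 of the 71 members (25.4%) and for 16.3% of all genes. They lay below both for 0 markers, beside 2 members (2.82%) and 16.1% of all genes. Of 14 markers 10 were measured, all kept, with a median of 0.57 (1.19 against PBS replicate 1 and 0.01 over PBS replicate 2), and their summed signal was 186665 and 201822 with rhLH, against 93147 and 190794 with PBS. Limma called 0 genes of any marker list after adjustment; 1 steroidogenic marker (CYP19A1, aromatase, log2 3.10 and 1.13 over the PBS arrays) and 1 pericyte marker (TAGLN, 1.24 and 1.30) had an unadjusted p under 0.05, both higher with rhLH. STAR, which carries cholesterol into the mitochondrion, and FDX1, the electron carrier of the side-chain cleavage enzyme, stood at 1.10 and 0.63 against PBS replicate 1 and at −0.07 and 0.00 over PBS replicate 2, the arrangement of the respiratory chain genes. Not every marker did so: FDXR and INHA lay lower against PBS replicate 2 (−0.44 and −0.31), and HSD3B2 and NR5A2 higher (0.30 and 0.35). Markers of other cells had summed signals of 24942 and 29081 with rhLH, against 21870 and 28476 with PBS (endothelial, 9 of 10 measured), of 12484 and 5980.3 against 4475 and 8284 (leukocytes, 7 of 11) and of 54775 and 60830 against 32598 and 63334 (fibroblasts, 5 of 6). Pericyte and smooth muscle markers summed to 10354 and 10154 with rhLH, against 5408 and 9580 with PBS (4 of 8 measured), and the red cell genes HBB and ALAS2 to 996 and 1235 against 1123 and 898.5. Every list but the red cell one was lowest on PBS replicate 1, and their part in the members' difference was not tested.

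Leaving out PBS replicate 1 took the median over members to 0.01 and leaving out PBS replicate 2 took it to 0.68. Limma calls against a sole PBS array are not read as results, since its spread must be assumed like that of the rhLH arrays.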

How the data were processed

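Biotin-labelled total RNA was hybridised to 4 arrays. The authors deposited an intensity per probe set on a linear scale; the submitters' processing notes name MAS5. The arrays share a trimmed mean. The scaling target is not given in the sources, and detection calls were not used here. Gene symbols came from a platform annotation: of 52865 probe sets (99 of them controls), 24956 had 1 symbol, 361 several and 27449 none. Sequences and coordinates were not used here.

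Signals were tested as log2(signal + 16) with limma 3.58.1 in R 4.3.3 (lmFit, eBayes with trend, two-sided, Benjamini-Hochberg, threshold 0.05) over 31659 probe sets, those with mean log2 above the 40th percentile; control probe sets were left out. The pipeline was run on simulated data in which all 4 arrays had the noise of the rhLH pair. It recovered 22.4%, 79.1% and 90.9% of log2 changes of 1, 2 and 3, with 13 false calls. The wider gap between the PBS arrays was not simulated, so recovery in the real data is not known from this. Folds are of log2(signal + 16) means and understate changes of dim probe sets; SDs are over 2 arrays, whose number limits the precision. The members and lists were chosen with earlier results of these data known, and lists are described, not tested. Named by rule were the 2 brightest members of each group, up to 3 per direction with the largest difference and no overlap, the SDH genes and the isoform sets, and from other lists up to 2 per direction. For 13 members the representative is an _s_at or _x_at probe set, which can bind other transcripts. Alternatives covered normalization, pseudocount (1 and 64), filter (none, 70th percentile), variance prior, probe set choice, grouping of members and leaving out each array.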

Additional observations from a re-analysis of the deposited data

How the results depend on the processing

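No paired analysis was possible because the labels give the groups different replicate numbers (1 and 2, 3 and 4). Leaving out each array in turn, the median difference ran from 0.01 to 0.68 over all members, −0.03 to 0.74 for complex I, −0.14 to 0.98 for complex II, −0.06 to 0.87 for complex III, −0.01 to 0.40 for complex IV and 0.12 to 0.67 for complex V. The lowest value came without PBS replicate 1 and the highest without PBS replicate 2, except that complex IV was lowest without rhLH replicate 4 and about as high without rhLH replicate 3. Members above the PBS arrays numbered 25 to 54 and below 4 to 18 (fewer arrays make separation easier). With the same arrays left out, the share of all genes ran from 25.4% to 43.4% above and from 26.4% to 43.7% below. Without PBS replicate 1 the counts were 26 members above and 18 below, beside 34.6% and 34.1% of all genes. Probe sets called by limma ran from 0 to 8027 and members called from 0 to 33. The highest of these limma counts came solely from the fit without PBS replicate 2, where PBS replicate 1 was the only control. The spread of that control had to be assumed, so those calls are not read as differences between the groups. Quantile normalization gave 0.28, 0.33, 0.27, 0.04 and 0.22 for complexes I to V in that order. It gave 0.13 for assembly factors and 0.23 over all members. Centring arrays on their medians moved the median of all genes to 0.25 and gave 0.61 over members, 0.65, 0.67, 0.71, 0.39 and 0.65 for complexes I to V in that order, 0.43 for assembly factors, and 23 members above and 0 below. The filter at the 70th percentile left 1 member below, since COX15 was no longer kept. Averaging probe sets gave 0.27 for complex I, 0.17 for complex V, 0.00 for assembly factors and 11 members above; limma was not run on these averages. Probe sets with no _s_at or _x_at suffix gave 0.12 for complex II, below complex IV at 0.15, and without rhLH replicate 3 complex II (0.33) also lay below complex IV (0.40).

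Single genes changed sign as follows. Under quantile normalization COX7B stood at −0.32, NDUFA4 at −0.17 and NDUFA4L2 at 0.05. With centred arrays NDUFC1 stood at 0.14, SDHA at 0.03, COX7A2 at 0.01 and NDUFA4L2 at 0.06. Averaged over probe sets, NDUFB4 stood at −0.15, UQCRB at −0.12, ATP5F1E at −0.41, COX17 at −0.15 and ATP5G1 at −0.01. Leaving out arrays, the ranges that crossed 0 were −0.03 to 0.95 for NDUFB4, −0.14 to 1.02 for SDHB, −0.06 to 1.02 for UQCRQ, −0.16 to 0.70 for UQCRC2, −0.09 to 1.02 for ATP5MG, −0.09 to 0.98 for SDHC, −0.74 to 0.85 for COX4I2, −0.03 to 0.90 for COX7A1, −0.51 to 0.07 for COX7A2, −0.29 to 0.30 for COX7B, −1.41 to 1.70 for COX6A2, −0.01 to 0.43 for COX8A and −0.17 to 0.23 for NDUFA4. The cause of these changes was not tested.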

Other observations

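Probe sets annotated with several symbols, one of them a subunit, were outside the member list. There were 12, of which 9 were kept, with a median log2 difference of 0.76 when PBS replicate 1 was the control and of −0.02 when PBS replicate 2 was. Those shared by COX6A1 with LOC701236 gave 24986 and 27437 with rhLH, against 16313 and 28157 with PBS, on one probe set, and 2417 and 3055 with rhLH, against 1838 and 2377 with PBS, on the other. That shared by NDUFB8 with LOC713028 had 11323 and 12859.9 with rhLH, against 7101 and 12724 with PBS. PBS replicate 1 was the lowest array on all 3 of these probe sets. They were picked out with their values in view, and of the 9 kept 7 had an rhLH mean above PBS replicate 1.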
